A study of Mus musculus with 6 samples.

Results

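The submandibular gland of the mouse, a salivary gland below the jaw built of secretory acini, ducts and granular convoluted tubules, was compared 6 h after 5 Gy of ionizing radiation with the unirradiated gland by RNA sequencing. The 6 h group and the control group held 2 libraries each, from wild-type C57BL/6 mice, and total RNA of whole gland was sequenced. The series held 6 libraries in all, and the 2 collected at 24 h were not used, because their values may come from another quantification route. Values of the other 4 fell mostly on steps of whole reads, which was not examined here for the 24 h libraries. Only genes listed with a symbol and with a mean of at least 1 FPKM (fragments counted per kilobase of exon, scaled to library size) over the 4 libraries were kept, which gave 11305 of 24394 genes. At that limit 1810024B03Rik stood just inside, with a mean of 1.0014 FPKM, and Klrb1c just outside, with 0.9995 FPKM. The labels give neither the number, age nor sex of the mice nor the hour of collection, and nothing in them says that 2 libraries of 1 group are from different mice; the p-values therefore measure the spread between libraries, which may be technical. In bulk RNA, fewer cells of a type and less RNA per cell cannot be told apart.

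The steps in the deposited values implied library sizes of 12128963 and 12577222 reads at 6 h and 12339893 and 11826335 reads in control. Whether these sizes count all mapped reads or only reads assigned to genes was not given. The secretory product Spt1 alone took 28.19 and 22.77% of the FPKM sum at 6 h and 25.78 and 25.72% in control. Products of the sublingual gland were nearly missing from control replicate 1, with Muc19 at 138.9 and 159.6 FPKM at 6 h, against 0.0178 FPKM in control replicate 1 and 177.6 FPKM in control replicate 2. Adipocyte markers, summed, reached 73.1 and 471.8 FPKM at 6 h and 39.65 and 693.7 FPKM in control, so replicate 1 of either group was low. The immediate early gene Fos stood at 1.42 and 1.41 FPKM at 6 h and at 47.41 and 1.09 FPKM in control, with control replicate 1 apart from the other libraries. Rpl26 and Eno1, which nearly every cell uses, are listed at 0 in all 4 libraries, so an exact 0 is given below as a listed value and not as absence. Salivary acinar and ductal products were abundant in all 4 libraries (Aqp5, the apical water channel, at 142.8 and 150.5 FPKM at 6 h and 113.7 and 155.3 FPKM in control).

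Irradiation breaks DNA, and the kinases that sense the breaks stabilise the transcription factor p53, which switches on genes of cell cycle arrest, repair and death. Salivary glands also express a circadian clock, carry resident macrophages and lymphocytes, and lose fluid output after irradiation although their cells divide slowly. The question was which genes changed early after the dose, beyond the known p53 targets.

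With limma on log2(FPKM + 1), 84 of 11305 genes differed at a Benjamini-Hochberg adjusted p under 0.05, a background share of 0.743%. Of these, 60 rose (0.531%) and 24 fell (0.212%). The groups did not overlap in any of the 84, and 82 of them differed by at least a log2 value of 1. By size alone, 101 genes were at least 2-fold higher without overlap (0.893%) and 58 at least 2-fold lower (0.513%). The p53 target list held 19 of the genes that rose and 0 that fell. That left 65 called genes outside it, of which 41 rose and 24 fell. Over all genes the log2 fold change had a median of -0.021, 53.8% of genes lay below 0, and 5 to 95% of genes lay between -0.489 and 0.441. The groups did not overlap in 44.5% of all genes tested, the share against which counts of non-overlapping list members are to be read. The unadjusted p was under 0.05 for 1482 genes. When 6 h replicate 1, 6 h replicate 2, control replicate 1 and control replicate 2 were left out in turn, 6, 6, 16 and 59 genes were called, and 6, 6, 14 and 30 of them were among the 84. The direction of the 84 could not turn in these 4 fits, since their groups did not overlap. The 6 that stayed called in all 4 were Gdf15, Cdkn1a, Dbp, H2-Aa, H2-Eb1 and H2-Ab1.

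**Figure D1:**
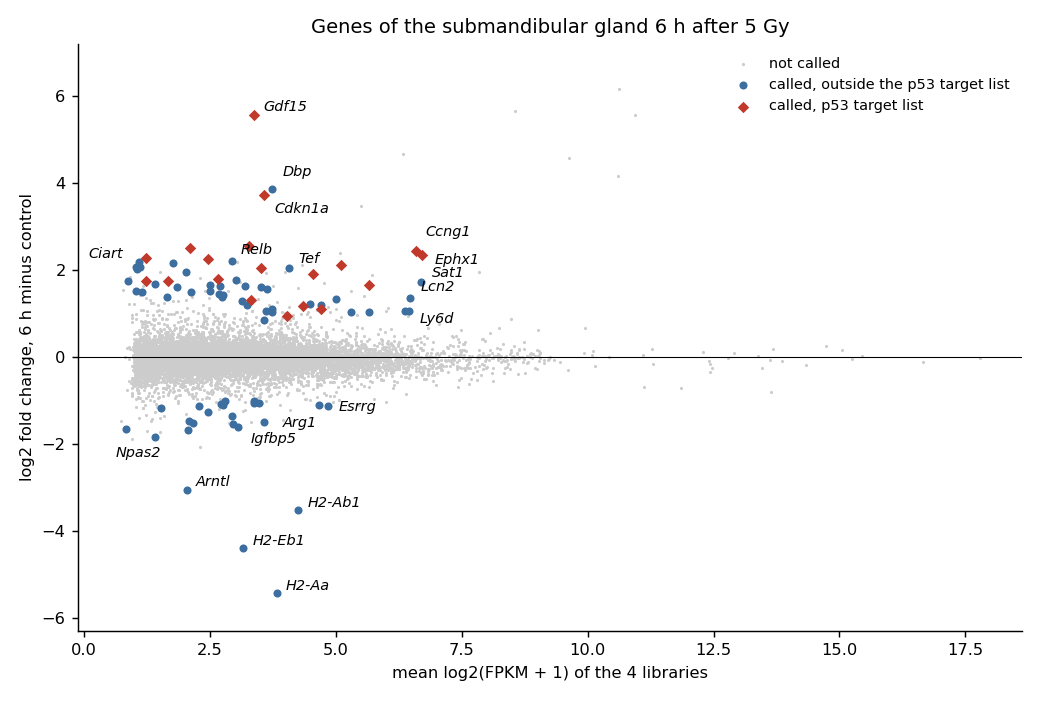
Each point is a gene tested; the x axis is its mean log2(FPKM + 1) over the 4 libraries and the y axis its log2 fold change, 6 h minus control. Red diamonds are called p53 target genes (19, all higher), blue circles the other 65 called genes, with H2-Aa, H2-Eb1, H2-Ab1 and Arntl lowest; uncalled points above 3 belong to genes that were nearly missing from control replicate 1.

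The p53 target list was drawn up with earlier results of these data known. Its counts are therefore a description and not an independent check of the irradiation. Of its 64 symbols, 57 were tested, the median log2 fold change was 0.63 and 45 members lay above 0. Gadd45a, a stress gene that p53 can induce, was not on the list and lay lower at 6 h. Its log2 fold change was between -1.396 and -0.692 with 1 library left out. Gdf15, a secreted stress cytokine, stood at 60.7 and 81.2 FPKM at 6 h against 0.449 and 0.546 FPKM in control, and Cdkn1a, the gene of the p21 inhibitor of cyclin-dependent kinases, at 39.7 and 44.7 FPKM against 2.36 and 2.13 FPKM. Beside these 2, the list members that rose spanned several roles. Ephx1, an epoxide hydrolase of xenobiotic metabolism, reached 233.5 and 234.9 FPKM at 6 h, against 48.1 and 42.4 FPKM in control (log2 fold change 2.35 ± 0.12, SE; adjusted p = 0.00201). Sesn2, a stress-induced inhibitor of mTORC1 signalling, reached 11.1 and 10.9 FPKM, against 1.80 and 1.24 FPKM in control (2.26 ± 0.16; adjusted p = 0.00729). Gtse1, a p53-interacting protein of the G2 phase, stood at 3.23 and 5.15 FPKM at 6 h and was close to absent in control, at 0.0583 and 0.0608 FPKM (adjusted p = 0.0214). Polk, a DNA polymerase that copies across lesions, rose by 1.80 ± 0.14 and Tnfrsf10b, the mouse TRAIL death receptor, by 1.74 ± 0.16 on the log2 scale. Dcxr, a carbonyl reductase, rose by 1.65 ± 0.13, the heparan sulfatase gene Sulf2 by 1.31 ± 0.12, the lipase gene Abhd4 by 1.17 ± 0.13, and Fam212b, now named Inka2, by 1.75 ± 0.17. The well-known targets Aen, Eda2r, Ccng1, Bax, Phlda3 and Mdm2 rose by 2.54, 2.51, 2.44, 2.11, 1.92 and 1.10 on the log2 scale, and with 9030617O03Rik and Ddit4 they complete the 19. Psrc1 and Trp53inp1 narrowly missed the threshold, with log2 fold changes of 1.63 ± 0.23 and 1.71 ± 0.24 (adjusted p = 0.0568 for both). Sesn1, a sestrin related to Sesn2, was at 7.66 and 6.79 FPKM at 6 h and at 10.1 and 9.78 FPKM in control, which did not pass (adjusted p = 0.266). Without 6 h replicate 1, 6 h replicate 2, control replicate 1 and control replicate 2 in turn, 2, 2, 9 and 12 of the 19 calls remained.

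The clock genes made up the largest named group of calls outside the p53 list, with 6 genes that rose and 3 that fell among the 23 tested. In the mammalian clock, BMAL1 (encoded by Arntl) pairs with CLOCK or NPAS2 and binds E-boxes to switch on the Per and Cry repressors, the nuclear receptors REV-ERB and output factors such as Dbp. PER and CRY proteins then inhibit BMAL1, and REV-ERB proteins repress Arntl. DBP and TEF activate, and NFIL3 represses, at a second element, the D-box. The E-box CACGTG, searched with its complement, was found upstream of the start in 5 of the 17 tested clock genes with a window of 250 bases in the RefSeq promoter table (Bhlhe41, Ciart, Cry1, Per1 and Tef), against 6.86% of the 27025 genes in the table. The D-box TTACGTAA or TTATGTAA, on either strand, was found only in Per3 among these 17, against 1.10% of all genes. The stretches below come from 3 clock genes that rose and show where the matches stand; they are RefSeq sequence of GRCm38.p6, printed 5′ to 3′ on the gene's strand, with matches in capitals.
Ciart, chr3:95882229-95882378, minus strand, 150 bases before the start, E-boxes in capitals: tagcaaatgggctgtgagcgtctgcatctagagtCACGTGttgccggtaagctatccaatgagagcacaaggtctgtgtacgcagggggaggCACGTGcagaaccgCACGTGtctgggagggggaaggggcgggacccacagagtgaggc
Tef, chr15:81802523-81802672, plus strand, 150 bases before the start, E-box in capitals: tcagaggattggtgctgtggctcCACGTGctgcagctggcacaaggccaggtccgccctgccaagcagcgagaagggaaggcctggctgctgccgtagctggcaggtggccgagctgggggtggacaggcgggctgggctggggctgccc
Per3, chr4:151044766-151044915, minus strand, bases -250 to -101, D-boxes in capitals: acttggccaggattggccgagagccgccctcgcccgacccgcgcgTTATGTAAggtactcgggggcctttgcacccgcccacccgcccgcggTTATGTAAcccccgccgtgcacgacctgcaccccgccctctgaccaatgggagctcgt
Ciart held 3 E-boxes in its stretch, Tef 1 E-box and Per3 2 D-boxes; a match is a description of the letters and not of binding. Starts are those of RefSeq, and the GENCODE span of Tef begins farther upstream, at 81802421, so that its whole stretch lies inside that span, as do the bases of Ciart nearest the start.

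Among the activators, Arntl stood at 0.397 and 0.438 FPKM at 6 h and at 11.6 and 10.03 FPKM in control (-3.06 ± 0.14; adjusted p = 0.00182). Npas2 stood at 0.473 and 0.323 FPKM at 6 h, against 3.90 and 4.19 FPKM in control, a log2 fold change of -1.85 ± 0.16 (adjusted p = 0.0167). Their partner Clock lay lower without passing, at 2.63 and 3.03 FPKM against 5.43 and 5.23 FPKM (adjusted p = 0.115). Of the repressors, Per3 rose, with 8.85 and 5.50 FPKM at 6 h and 1.05 and 1.09 FPKM in control (1.95 ± 0.22; adjusted p = 0.0292). Ciart, a repressor of BMAL1 activity, stood at 3.49 and 2.91 FPKM at 6 h, against 0.0581 FPKM in control replicate 1 and a listed 0 in control replicate 2 (adjusted p = 0.0178). Per2 at 3.49 and 1.96 FPKM against 0.319 and 0.203 FPKM (adjusted p = 0.0892), Cry2 at 5.05 and 4.31 FPKM against 2.03 and 2.11 FPKM (adjusted p = 0.0887) and Per1 at 5.30 and 5.97 FPKM against 2.07 and 4.03 FPKM (adjusted p = 0.303) did not pass. Cry1 was the repressor with a lower value at 6 h, 1.01 and 1.24 FPKM against 2.34 and 1.57 FPKM, and it did not pass (adjusted p = 0.411).

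The REV-ERB genes lay higher together. Nr1d2 (REV-ERB beta) rose to 40.7 and 35.7 FPKM at 6 h, against 16.1 and 16.4 FPKM in control (1.18 ± 0.12; adjusted p = 0.0204). Nr1d1 (REV-ERB alpha), with 52.2 and 40.6 FPKM against 20.6 and 21.3 FPKM, just missed the threshold (adjusted p = 0.0509). The output factors parted by sign. The activators Dbp, at 58.3 and 42.1 FPKM against 2.51 and 2.42 FPKM in control, and Tef, at 36.4 and 30.3 FPKM against 7.40 and 7.25 FPKM, rose. The repressor Nfil3 fell to 3.56 and 4.03 FPKM, against 10.5 and 12.1 FPKM in control (-1.35 ± 0.13; adjusted p = 0.0204). Bhlhe41 (DEC2), an E-box repressor, rose to 7.45 and 5.22 FPKM, against 1.64 and 1.53 FPKM (1.49 ± 0.19; adjusted p = 0.0423), while its paralog Bhlhe40 did not pass, at 35.6 and 29.4 FPKM against 28.7 and 18.4 FPKM. Usp2, a ubiquitin protease of the clock, was at 8.52 and 6.24 FPKM against 3.47 and 3.26 FPKM (adjusted p = 0.114). Within a group the libraries agreed closely for most of these genes, and 6 h replicate 1 was the higher of the 6 h pair for Dbp, Tef, Ciart, Per3, Per2, Nr1d1, Nr1d2 and Bhlhe41. Without 6 h replicate 1, 6 h replicate 2, control replicate 1 and control replicate 2 in turn, 1, 1, 2 and 3 of the 9 called clock genes still passed, and their log2 fold changes stayed between 84.6 and 115.4% of the full value. Hours of collection were not at hand, and how far the 2 groups were taken at different hours was not tested.

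**Figure D2:**
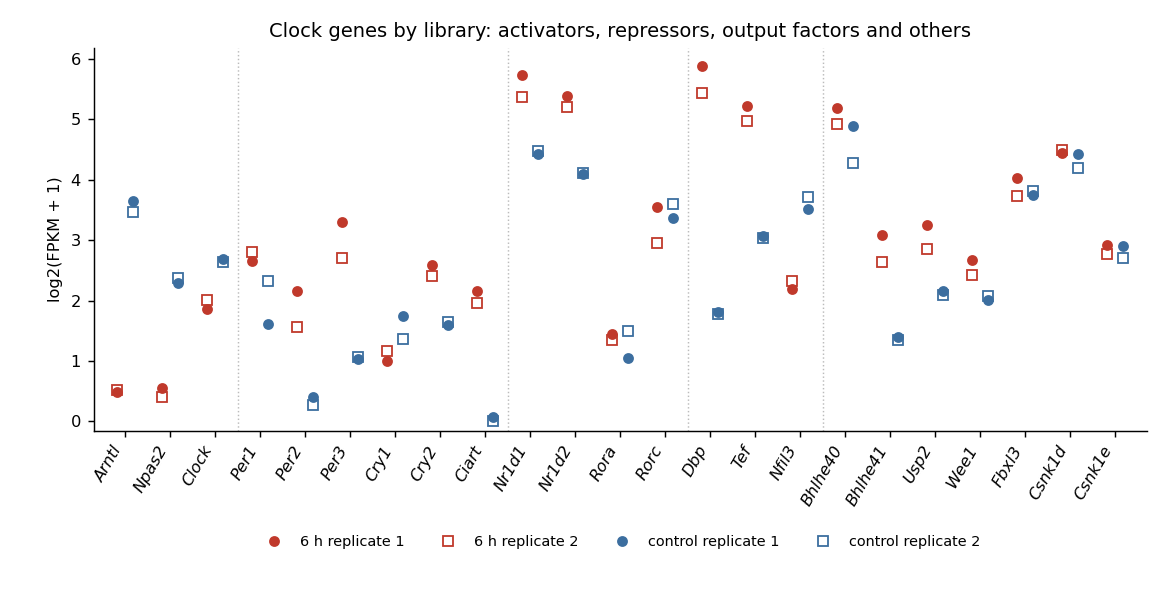
Log2(FPKM + 1) of the 23 clock genes tested, 6 h libraries in red left of control libraries in blue; dotted lines part activators, repressors, nuclear receptors, D-box factors and others. Arntl, Npas2 and Nfil3 were lower and Dbp, Tef, Ciart, Per3, Nr1d2 and Bhlhe41 higher at 6 h, with no overlap of the groups.

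The 3 lowest log2 fold changes among called genes were those of MHC class II chains, which display peptides on antigen-presenting cells to helper T cells. H2-Aa, the alpha chain of I-A, stood at 0.926 and 1.41 FPKM at 6 h, against 87.5 and 97.8 FPKM in control, a log2 fold change of -5.44 ± 0.15 (adjusted p = 0.000378). H2-Eb1, the beta chain of I-E, stood at 0.840 and 1.05 FPKM at 6 h, against 39.5 and 40.4 FPKM in control (-4.40 ± 0.12; adjusted p = 0.000378). H2-Ab1, the beta chain of I-A, stood at 4.01 and 5.27 FPKM at 6 h, against 63.1 and 64.4 FPKM in control (-3.53 ± 0.14; adjusted p = 0.00121). Both 6 h libraries were low and both control libraries high for each chain, and the gap between groups was many times that between libraries. H2-DMb1, a chain of the DM complex that loads peptides, fell as well, to 1.67 and 1.61 FPKM at 6 h against 6.19 and 6.85 FPKM in control (-1.51 ± 0.13; adjusted p = 0.0172).

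The rest of the class II pathway did not follow to that extent. Cd74, the invariant chain that escorts class II molecules, was at 129.1 and 172.5 FPKM at 6 h and at 200.3 and 219.0 FPKM in control (-0.49 ± 0.17; adjusted p = 0.314). Ctss, the cathepsin that trims the invariant chain, was at 30.6 and 35.3 FPKM against 45.1 and 40.4 FPKM (adjusted p = 0.32). The DM alpha chain gene H2-DMa was at 3.43 and 3.60 FPKM against 4.74 and 3.88 FPKM (adjusted p = 0.569), and H2-DMb2, H2-Oa, Cd86 and Cd83 had groups that overlapped. Ciita, the coactivator that class II genes depend on, was under the filter at 0.330 and 0.358 FPKM at 6 h and 0.703 and 0.494 FPKM in control. H2-Ob, at 0.0618 and 0.149 FPKM against 0.425 and 0.570 FPKM, and H2-Eb2, under 0.3 FPKM in all 4 libraries, were also under it. Of the 14 members of the class II list, 11 were tested, 4 fell and 0 rose, and the median log2 fold change was -0.37. Among members with a mean of at least 5 FPKM it was -3.53, the value of H2-Ab1 itself, since few members were left. Cd74 and Ctss were among those few and were not called.

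The 4 genes that fell lie on chromosome 17 of GRCm38, where H2-DMb1 spans 34153072 to 34160230, H2-Ab1 34257689 to 34269419, H2-Aa 34282744 to 34287823 and H2-Eb1 34305867 to 34316674. The span from H2-DMb1 to H2-Eb1 was set by these called genes, so it holds all 4 by choice. The uncalled list members H2-DMa, H2-DMb2 and H2-Oa are not in it. Of the 8 genes tested in this span, the other 4 were the transporter genes Tap1 and Tap2 and the immunoproteasome genes Psmb8 and Psmb9, which stand between H2-DMb1 and H2-Ab1 and had log2 fold changes of 0.53, 0.13, -0.02 and 0.17, none called. Class I genes on either side had values of both signs without passing: H2-K1 was at 150.9 and 135.3 FPKM at 6 h against 227.6 and 190.3 FPKM in control, H2-D1 at 113.1 and 99.0 FPKM against 86.3 and 75.9 FPKM, and H2-Q4 at 71.0 and 49.0 FPKM against 31.7 and 27.6 FPKM. Class I genes are near copies of one another, so reads may have been shared between them. The reads were not analysed here, and whether all 4 libraries carried the same alleles at this region was not tested.

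Class II promoters carry the Y-box, an inverted CCAAT element. Searched as CCAATC or GATTGG on both strands, which are one motif and its complement, it was found in 6 of the 7 tested list members with a promoter window, the uncalled H2-DMa, H2-DMb2 and H2-Oa included, against 16.6% of all genes in the table. The stretches of the called genes with a window are shown, 150 bases before the start, RefSeq GRCm38.p6, matches in capitals.
H2-Aa, chr17:34287824-34287973, minus strand: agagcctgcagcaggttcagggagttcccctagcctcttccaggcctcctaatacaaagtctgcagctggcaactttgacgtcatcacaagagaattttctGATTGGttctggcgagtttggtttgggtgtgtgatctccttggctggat
H2-Eb1, chr17:34305717-34305866, plus strand: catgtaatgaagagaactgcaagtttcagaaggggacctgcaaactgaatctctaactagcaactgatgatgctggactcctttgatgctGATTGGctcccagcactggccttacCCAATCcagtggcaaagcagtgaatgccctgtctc
H2-DMb1, chr17:34153041-34153190, plus strand: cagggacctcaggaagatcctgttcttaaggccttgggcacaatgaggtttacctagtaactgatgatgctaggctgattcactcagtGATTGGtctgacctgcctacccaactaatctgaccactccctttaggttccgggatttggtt
Counted from the start, the first match began at -49 in H2-Aa, at -60 in H2-Eb1 and at -62 in H2-DMb1. For H2-DMb1 the RefSeq start is 34153191, downstream of the GENCODE start given above, so most of its stretch and the marked Y-box lie inside the GENCODE span. In the fits that each left out 1 library, H2-Aa, H2-Eb1 and H2-Ab1 passed every time and H2-DMb1 in none.

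**Figure D3:**
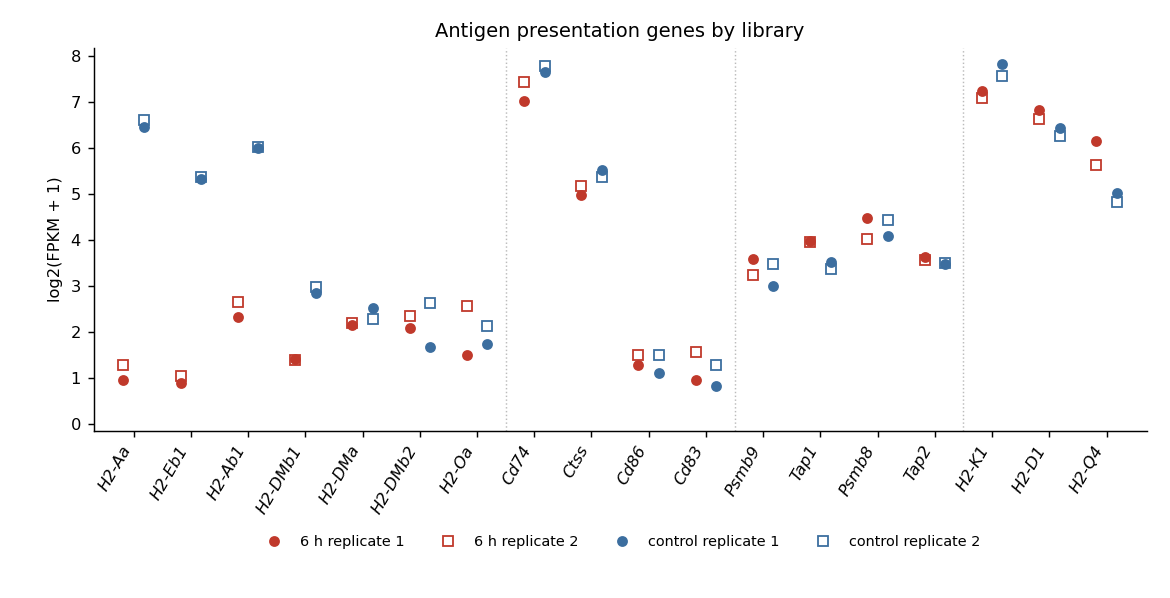
Log2(FPKM + 1) of antigen presentation genes, 6 h libraries in red left of control libraries in blue; dotted lines part class II chains, other class II pathway genes, the 4 genes between H2-DMb1 and H2-Ab1, and class I genes. H2-Aa, H2-Eb1, H2-Ab1 and H2-DMb1 lie apart between the groups, Cd74 and the rest much less.

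Most macrophage and monocyte markers tested were lower, by less than H2-Aa, H2-Eb1 and H2-Ab1. Of 24 macrophage and monocyte markers tested, 21 lay below 0, 0 were called and the median log2 fold change was -0.27, with -0.13 without 6 h replicate 1 and -0.41 without 6 h replicate 2; their sum was 199.5 and 252.2 FPKM at 6 h and 297.1 and 295.1 FPKM in control, and none of the 25 was at 0. Csf1r, the receptor that macrophages need to survive, was at 7.87 and 7.84 FPKM at 6 h against 10.7 and 11.1 FPKM in control (adjusted p = 0.237), C1qa at 41.2 and 51.9 FPKM against 58.9 and 53.8 FPKM, and Adgre1 (F4/80) overlapped between groups. The transcription factor gene Maf lay lowest in the list, at 7.38 and 11.4 FPKM against 29.3 and 25.8 FPKM, and narrowly missed (-1.48 ± 0.21; adjusted p = 0.0568). Ccr2, the chemokine receptor of monocytes, was at 1.93 and 2.50 FPKM against 4.92 and 5.395 FPKM (adjusted p = 0.0893). Cd14 went the other way, at 31.5 and 27.1 FPKM against 16 and 12.5 FPKM (adjusted p = 0.0795). Dendritic cell markers were scarce: 3 of 12 were tested, and Flt3, their growth factor receptor, was at 0.0226 and 0.0218 FPKM at 6 h against 0.200 and 0.324 FPKM in control. The dendritic cell markers summed to 5.83 and 8.17 FPKM at 6 h and 10.3 and 13.5 FPKM in control. Most of them, Flt3 included, were under the filter. Whether they changed by less than the class II chains was therefore not tested. How far the number of antigen-presenting cells took part in the class II values was not tested.

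Lymphocyte markers lay low in the 6 h gland. All 12 T and NK cell markers tested of 27 had a log2 fold change below 0, with a median of -0.73, and their sum was 18.7 and 20.4 FPKM at 6 h and 40.9 and 42.2 FPKM in control. 1 was called: Thy1, a surface protein of T cells that fibroblasts and neurons also carry, fell to 0.903 and 0.917 FPKM, against 3.13 and 3.51 FPKM in control (adjusted p = 0.0485). The T cell receptor chain gene Cd3g was at 0.242 and 0.777 FPKM against 2.06 and 2.73 FPKM (adjusted p = 0.146), Il2rb, a chain of the interleukin-2 receptor, at 0.581 and 1.15 FPKM against 2.68 and 2.79 FPKM (adjusted p = 0.141), and Ccl5, a chemokine of T and NK cells, at 5.75 and 8.69 FPKM against 12.5 and 16.1 FPKM (adjusted p = 0.196). Ms4a4b, a membrane protein of T cells, was at 1.18 and 2.02 FPKM against 5.73 and 5.11 FPKM (adjusted p = 0.0706), and Coro1a, an actin-binding protein of leukocytes, at 2.85 and 3.79 FPKM against 6.57 and 9.25 FPKM (adjusted p = 0.128). Plasma cell genes gave no such picture. The 6 B and plasma cell markers tested of 16 all lay above 0 (median 0.47, or 0.26 to 1.21 with 1 library left out), 0 were called, and their sum was 351.6 and 469.3 FPKM at 6 h and 204.0 and 466.1 FPKM in control, low in control replicate 1. The B cell gene Ms4a1 was at 0.0802 FPKM and a listed 0 at 6 h and at a listed 0 and 0.164 FPKM in control. Of 16 neutrophil and mast cell markers 1 was tested, and Cxcr2, a neutrophil chemokine receptor, is listed at 0 in 3 libraries and at 0.0278 FPKM in control replicate 2.

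Outside the marker lists, 3 more genes known from myeloid cells or interferon responses fell. Which cells of the gland held their RNA was not tested. Mgl2, a lectin of tissue macrophages and dendritic cells, fell to 3.51 and 3.75 FPKM, against 8.31 and 9.49 FPKM in control (-1.10 ± 0.13; adjusted p = 0.0335). Arg1, the arginase of alternatively activated macrophages, fell to 14.5 and 18.1 FPKM, against 37.1 and 34.9 FPKM (-1.10 ± 0.14; adjusted p = 0.0445). Iigp1, an interferon-induced GTPase, fell to 2.09 and 2.47 FPKM, against 5.84 and 6.55 FPKM (-1.14 ± 0.14; adjusted p = 0.0424), and it was the 1 called gene among 38 interferon response genes tested, whose median was 0.07 (-0.08 to 0.15 with 1 library left out). None of these 3 genes or Thy1 passed in any fit with 1 library left out.

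The noncanonical NF-kB subunits rose. Relb stood at 19.9 and 11.8 FPKM at 6 h, against 2.62 and 2.46 FPKM in control (2.21 ± 0.24; adjusted p = 0.0257), and its partner gene Nfkb2, which encodes p100 and p52, at 18.9 and 17.8 FPKM, against 8.22 and 7.89 FPKM (1.09 ± 0.11; adjusted p = 0.0224). These proteins act in a branch of the NF-kB system that answers to lymphotoxin and BAFF receptors, and both genes are themselves NF-kB targets. The NF-kB consensus was found in the promoter windows of Nfkb2, Nfkbia and Tnip1 among 8 tested list members with a window, against 4.46% of all genes in the table. The stretch of Nfkb2, 150 bases before the start in RefSeq GRCm38.p6, holds 3 matches, of which 2 overlap; it lies inside the GENCODE span, which begins at 46304320.
Nfkb2, chr19:46304587-46304736, plus strand, matches in capitals: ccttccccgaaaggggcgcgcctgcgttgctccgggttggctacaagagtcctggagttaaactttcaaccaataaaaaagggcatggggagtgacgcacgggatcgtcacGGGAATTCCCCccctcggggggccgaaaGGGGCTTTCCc
Of the 12 NF-kB subunit and feedback genes tested, 11 lay above 0 and the median was 0.59. The inhibitor genes Nfkbia, at 33.6 and 32.5 FPKM at 6 h against 20.7 and 22.9 FPKM in control, and Tnip1, at 5.46 and 4.72 FPKM against 2.71 and 2.69 FPKM, did not overlap between groups and did not pass (adjusted p = 0.13 and 0.126). Birc3 and Bcl3 had log2 fold changes of 0.76 ± 0.19 and 0.71 ± 0.15, also without passing. The adhesion molecule gene Icam1 varied within the 6 h group, at 14.4 and 7.11 FPKM against 2.39 and 2.73 FPKM, and 6 h replicate 1 was likewise the higher for Relb. Among the 25 tested cytokine, chemokine and receptor genes 0 were called and the median was 0.08 (-0.02 to 0.27 with 1 library left out). Il6 was listed at 0 in all 4 libraries, Tnf at 0.249 and 0.818 FPKM at 6 h and 0.196 and 0.154 FPKM in control, and Il1b at 0.621 and 1.08 FPKM against 0.733 and 0.191 FPKM. Lcn2, an iron-siderophore-binding protein of innate defence, rose to 140.9 and 140.0 FPKM, against 54.3 and 54.2 FPKM (1.36 ± 0.10; adjusted p = 0.0102), the 1 call among 17 acute phase and innate defence genes tested. Lcn2 was also, with Ddit4 of the p53 list, 1 of the 2 calls among 20 glucocorticoid responsive genes (median 0.23, or 0.08 without control replicate 1), where Sgk1, a kinase, was at 27.95 and 30.3 FPKM at 6 h against 73.7 and 54.6 FPKM in control (adjusted p = 0.0718). Lcn2 still passed without control replicate 2; Relb and Nfkb2 passed in no fit with 1 library left out, nor did Lcn2 in the other 3.

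Stromal genes lay lower with few calls. Of 29 fibroblast and matrix genes tested, 27 lay below 0, the median was -0.56 and 0 were called, with the groups apart in 23 of the lower genes, against 44.5% of all genes apart in either direction. Lum, a keratan sulfate proteoglycan, came closest, at 18.9 and 19.8 FPKM at 6 h against 33.7 and 36.6 FPKM in control (-0.83 ± 0.11; adjusted p = 0.0501). Col3a1 was at 8.77 and 11.5 FPKM against 19.8 and 31.0 FPKM (adjusted p = 0.132), Fbn1, which encodes fibrillin, at 0.791 and 0.731 FPKM against 2.202 and 2.82 FPKM (adjusted p = 0.109), and Sparc at 35.2 and 36.1 FPKM against 52.9 and 57.1 FPKM (adjusted p = 0.109). The list summed to 434.6 and 446.2 FPKM at 6 h and 556.0 and 614.5 FPKM in control. Plat, tissue plasminogen activator, was at 0.581 and 0.374 FPKM against 2.29 and 3.18 FPKM (adjusted p = 0.072). The 14 endothelial markers tested had a median of -0.24, or -0.05 without control replicate 2, with 0 called; Kdr, the VEGF receptor, was at 1.18 and 1.39 FPKM against 2.13 and 2.65 FPKM, while Vwf was at 5.30 and 5.45 FPKM against 0.642 and 3.06 FPKM.

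3 genes of growth and differentiation fell and 1 rose, grouped here after their values were seen. Igfbp5, which binds insulin-like growth factors, fell to 3.35 and 4.27 FPKM, against 12.3 and 14.9 FPKM in control (adjusted p = 0.0204), the 1 call among 11 IGF axis genes (median -0.23, or -0.10 without 6 h replicate 2). Id4, an inhibitor of basic helix-loop-helix factors, fell to 3.08 and 4.02 FPKM, against 14.6 and 10.1 FPKM (-1.54 ± 0.20; adjusted p = 0.0494), alone among 26 salivary lineage regulators tested (median 0.08, or -0.04 without control replicate 1). Emp1, an epithelial membrane protein, fell to 5.68 and 6.89 FPKM, against 13.6 and 13.8 FPKM (adjusted p = 0.0473). Gdf5, a ligand of the BMP family, rose to 13.3 and 14.5 FPKM, against 3.36 and 3.36 FPKM (1.77 ± 0.12; adjusted p = 0.00711). The BMP antagonist gene Fst was at 2.94 and 2.75 FPKM against 7.53 and 5.41 FPKM without passing (adjusted p = 0.117), and the TGF-beta and BMP list had a median of -0.02 with 0 called. Gdf5 still passed without control replicate 2, and none of the 4 passed in any other fit with 1 library left out.

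Secretory products of the epithelium were not among the calls. The 21 granular convoluted tubule products tested had a median of -0.10 (-0.35 without control replicate 2) with 0 called, and Egf stood at 5470 and 4917 FPKM at 6 h and at 7322 and 5244 FPKM in control. The 19 acinar markers had a median of 0.26, which was -0.002 without control replicate 1, and the 20 fluid secretion genes a median of 0.03 (-0.09 to 0.06 with 1 library left out), with 0 called in either list. Chrm3, the main muscarinic receptor of salivary secretion, was at 6.40 and 4.92 FPKM at 6 h and at 5.65 and 4.64 FPKM in control. Slc4a4, a sodium bicarbonate cotransporter gene, was at 7.08 and 3.52 FPKM against 1.87 and 1.68 FPKM (adjusted p = 0.221). Ductal sodium channel genes lay lower without passing, with Scnn1g at 3.17 and 3.33 FPKM against 11.2 and 6.76 FPKM (adjusted p = 0.125) and Scnn1b at 22.4 and 20.9 FPKM against 51.6 and 33.0 FPKM (adjusted p = 0.2).

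Single epithelial genes did change. Itgb4, the integrin of hemidesmosomes that anchor basal cells, rose to 17.9 and 15.3 FPKM, against 7.54 and 7.28 FPKM in control (1.06 ± 0.13; adjusted p = 0.0337). It was the 1 call among 11 basal and myoepithelial markers, of which 9 lay below 0, 7 of them without overlap, and the list median was -0.32. Ly6d, a membrane-anchored surface protein of epithelia and of early B cells, rose to 122.1 and 129.1 FPKM, against 60.1 and 59.2 FPKM (1.06 ± 0.11; adjusted p = 0.0204). Hpn, the membrane serine protease hepsin, rose to 15.1 and 14.7 FPKM, against 7.86 and 7.82 FPKM (0.85 ± 0.11; adjusted p = 0.0474). Tgm5, a transglutaminase, fell to 3.75 and 3.24 FPKM, against 8.61 and 8.39 FPKM (adjusted p = 0.0335). None of these 4 passed with any single library left out.

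Single genes of stress responses were called, with at most 1 call in each related list beside the p53 targets. Nfe2l2, which encodes the antioxidant regulator NRF2, rose to 56.1 and 55.3 FPKM, against 28.1 and 25.0 FPKM in control (1.04 ± 0.11; adjusted p = 0.0249), while the 26 NRF2 and antioxidant genes had a median of -0.04 (-0.07 to 0.06 with 1 library left out) and no other call. Among them Hmox1, heme oxygenase, was at 6.49 and 7.37 FPKM against 3.96 and 3.97 FPKM (adjusted p = 0.125) and the glutathione transferase gene Gsta4 at 13.2 and 15.4 FPKM against 29.2 and 23.5 FPKM (adjusted p = 0.112). Ddit4l and its relative Ddit4, inhibitors of mTORC1, both rose: Ddit4l stood at 3.82 and 3.68 FPKM against 0.417 and 0.559 FPKM (adjusted p = 0.019) and Ddit4 at 22.1 and 21.4 FPKM against 9.96 and 11.6 FPKM (adjusted p = 0.0474). The 19 ATF4 and amino acid response genes had a median of 0.45, 16 of them above 0 and Sesn2 the 1 call. Ddit3, the stress factor CHOP, was at 27.9 and 20.6 FPKM against 11.1 and 9.61 FPKM (adjusted p = 0.0716), and Psat1, a serine synthesis enzyme, at 5.43 and 9.61 FPKM against 2.64 and 2.99 FPKM (adjusted p = 0.178). The 22 unfolded protein response genes had a median of -0.25 with 0 called, and the median was -0.08 without 6 h replicate 1 and -0.11 without control replicate 1.

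Enzymes and transporters were called on both sides. Sat1, the acetyltransferase that degrades polyamines and a p53 target in human cells, rose to 192.9 and 181.0 FPKM, against 52.0 and 60.8 FPKM in control (1.71 ± 0.12; adjusted p = 0.00903). Slc19a2, a thiamine transporter that p53 is known to induce in human cells, rose to 10.02 and 11 FPKM, against 2.97 and 2.44 FPKM (adjusted p = 0.0145), and Gpt, alanine aminotransferase, to 13 and 13.45 FPKM, against 5.09 and 5.32 FPKM (adjusted p = 0.019). Esrrg, a nuclear receptor of oxidative metabolism, fell to 18.7 and 18.1 FPKM, against 41.7 and 41.1 FPKM (-1.13 ± 0.10; adjusted p = 0.0183). Ckb, brain-type creatine kinase, fell to 6.36 and 5.86 FPKM, against 15.2 and 12.7 FPKM (adjusted p = 0.0445), Tfrc, the transferrin receptor that takes up iron, to 6.78 and 6.60 FPKM, against 14.5 and 15.5 FPKM (adjusted p = 0.0249), and Hpgd, which inactivates prostaglandins, to 4.13 and 3.70 FPKM, against 8.58 and 9.25 FPKM (adjusted p = 0.0416). Srebf1, the regulator of fatty acid synthesis, was at 7.69 and 10.8 FPKM against 18.7 and 22.9 FPKM (adjusted p = 0.0997); the fatty acid synthesis list had a median of -0.36, but -1.01 without control replicate 1 and 0.26 without control replicate 2, so its direction rests on single libraries. All 41 nuclear genes of the respiratory complexes lay below 0, by little, with a median of -0.25, the groups apart in 36, against 44.5% of all genes, and 0 called. Ndufs1, of complex I, was at 19.97 and 21.3 FPKM against 30.3 and 29.2 FPKM (adjusted p = 0.16). Cytosolic ribosomal protein genes had a median of 0.02 and 0 of 53 were called. Of the 9 called genes that are outside the p53 list in the paragraphs on stress and on enzymes, 0, 0, 0 and 2 passed without 6 h replicate 1, 6 h replicate 2, control replicate 1 and control replicate 2 in turn.

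The remaining named genes outside the lists all rose, and several serve DNA repair or stress signalling. Rev1, a scaffold of translesion synthesis, stood at 9.32 and 10.1 FPKM, against 3.37 and 2.94 FPKM in control (1.37 ± 0.13; adjusted p = 0.019). Ddias, named as a damage-induced suppressor of apoptosis, stood at 3.08 and 3.71 FPKM at 6 h and was close to absent in control, at 0.0235 and 0.0736 FPKM (adjusted p = 0.0167). Zak, a kinase that senses stalled ribosomes, stood at 4.06 and 4.05 FPKM against 0.721 and 1.21 FPKM (adjusted p = 0.0476), and Dyrk3, a kinase of stress granules, at 9.75 and 8.52 FPKM against 2.70 and 1.76 FPKM (adjusted p = 0.0257). Kank3, a p53 target in human cells, stood at 5.01 and 5.49 FPKM against 0.862 and 1.25 FPKM (adjusted p = 0.0222). Aaas, a nuclear pore protein, Exoc4, an exocyst subunit, and Eif2d, a translation factor, rose by 1.61 ± 0.12, 1.56 ± 0.17 and 1.23 ± 0.12 on the log2 scale. Commd3 rose to 121.6 and 115.4 FPKM, against 53.2 and 59.0 FPKM (adjusted p = 0.0237), and Gpr155 to 68.3 and 73.4 FPKM, against 33.2 and 34.9 FPKM (adjusted p = 0.0231). Zfp809, a repressor of retroviral elements, Itpripl1 and Tmem44 rose by 1.05 ± 0.12, 1.42 ± 0.13 and 1.52 ± 0.20. Of these 13 genes 4 passed without control replicate 2 and 0 without any other single library. Of the 84 called entries, 16 were unnamed gene models or short RNAs.

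**Figure D4:**
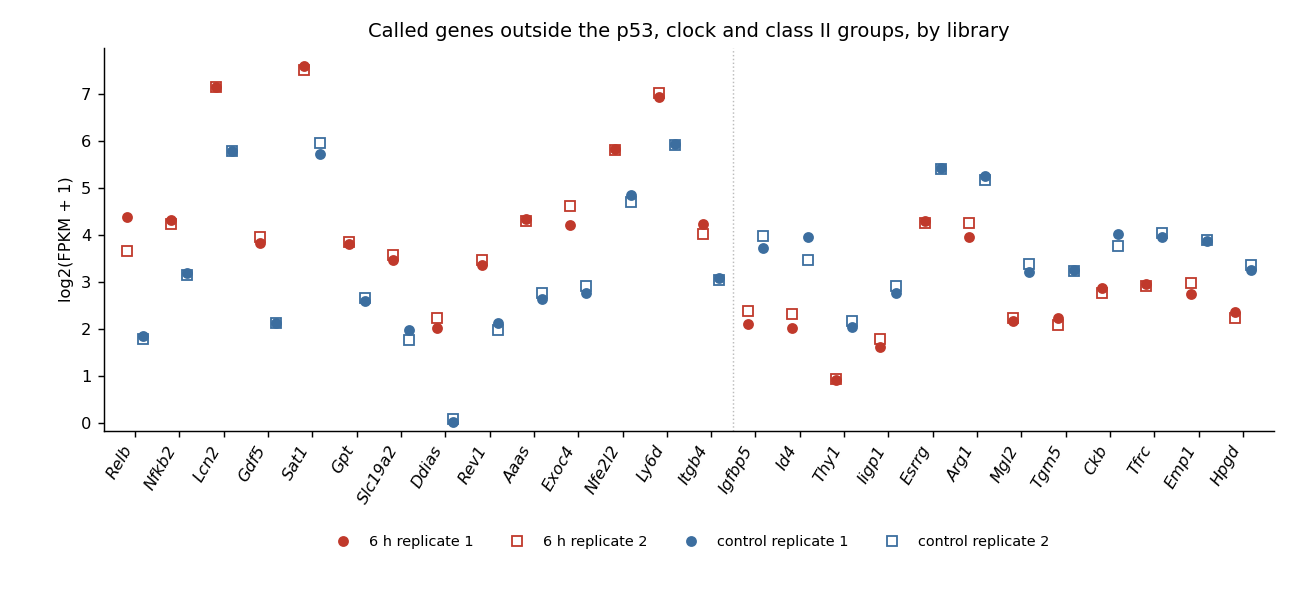
Log2(FPKM + 1) by library of 26 called genes outside the p53, clock and class II groups, 6 h in red left of control in blue; the dotted line parts 14 genes that rose from 12 that fell. The groups are apart for every gene shown, and replicates lie close except for Relb and Id4.

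Division and repair genes showed little. Among 31 DNA damage signalling and repair genes the median was 0.04 (-0.02 to 0.10 with 1 library left out) and 0 were called, with Chek2, a checkpoint kinase, at 8.37 and 8.92 FPKM against 5.84 and 6.36 FPKM (adjusted p = 0.243). Of 21 DNA replication genes 15 lay below 0 (median -0.09) and 0 were called; Gmnn, the replication licensing inhibitor geminin, was at 3.80 and 3.01 FPKM against 7.55 and 5.63 FPKM (adjusted p = 0.19). Mitosis genes were mostly under the filter, with Mki67 at 0.581 and 0.592 FPKM at 6 h and 0.579 and 1.04 FPKM in control, and the 5 tested had a median of -0.05, or 0.16 without control replicate 2. Myc was at 4.37 and 4.11 FPKM against 5.91 and 6.63 FPKM (adjusted p = 0.243).

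Across all 55 lists, the medians of the 49 with at least 5 members tested ran between -0.73 for T and NK cell markers and 0.67 for secretory products of neighbouring glands, a median that was -1.41 without control replicate 1. With 1 library left out in turn, 39 of these 49 medians moved by over 1.5 times or changed sign, most of them near 0, and 20 changed sign. Of the 65 called genes outside the p53 list, the 2 clock lists held 9 and the class II list 4, and 43 were on no list. The lists were chosen with earlier results of these data known, so these counts are a description only.

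**Figure D5:**
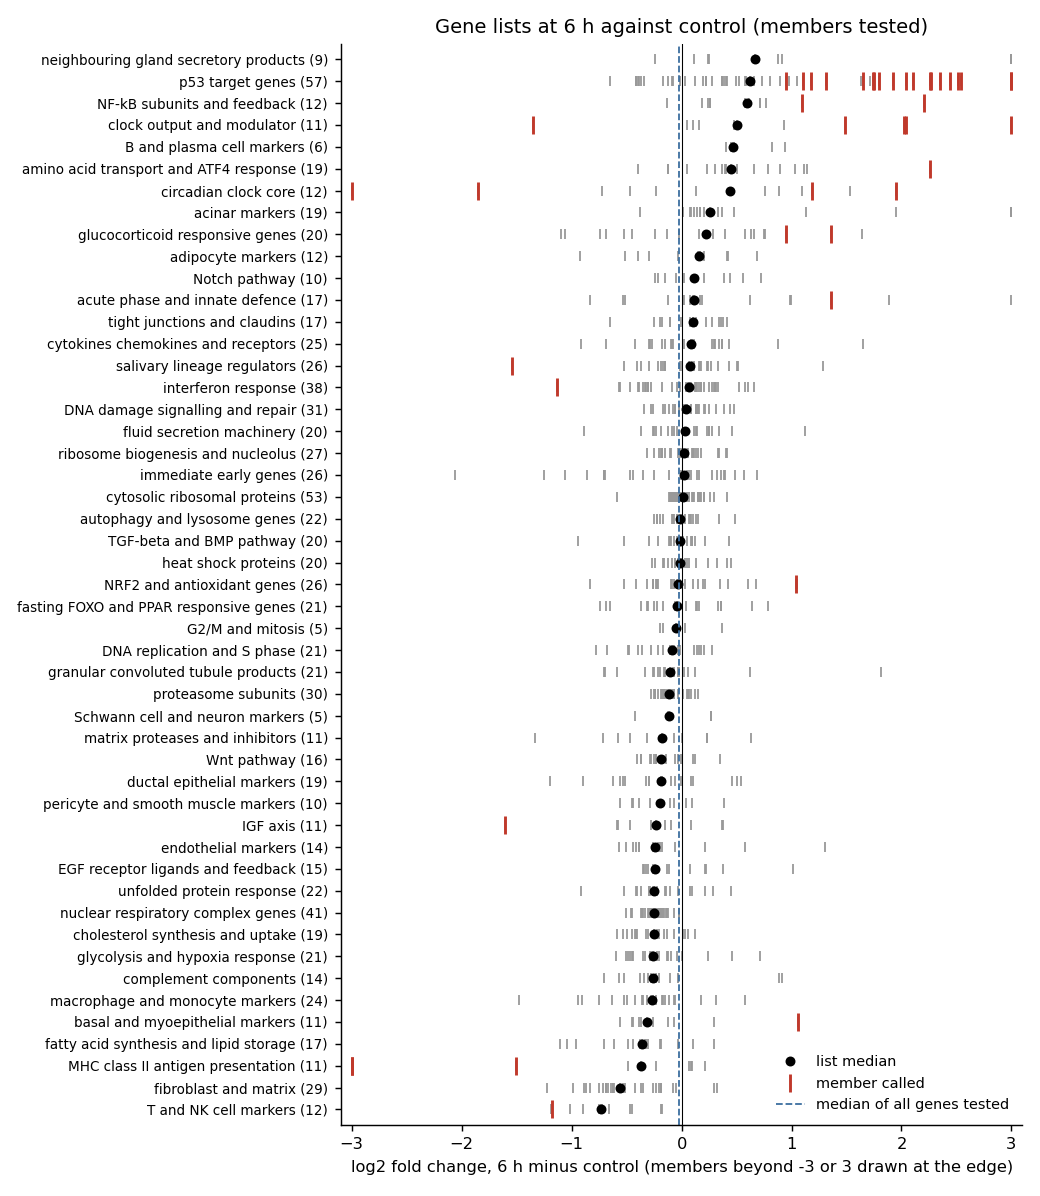
Log2 fold changes, 6 h minus control, of the members of each list with at least 5 tested genes (number in brackets), ordered by the list median (black dot); red ticks are called members and the dashed line is the median of all genes, -0.021. Class II, clock and p53 lists hold members far from 0, whereas the respiratory and ribosomal lists lie close together.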

How the data were processed

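RNA of submandibular glands was sequenced on an Illumina instrument, and the deposited table gives FPKM per gene; the submitters' processing notes name TopHat2 2.1.0, Cufflinks 2.2.1 and mm10. Strandedness and annotation were not given in the sources used here. In the 4 libraries used, 98.98% of 16214 genes had values on whole-read steps (tolerance 1e-06), from which reads were recovered for an alternative. Rows named by a number (27) and genes with a mean under 1 FPKM were left out. limma 3.58.1 in R 4.3.3 was fitted to log2(FPKM + 1) of the 4 libraries, with a trended empirical Bayes variance and a two-sided, Benjamini-Hochberg adjusted p over all genes, threshold 0.05; fold changes on this scale understate changes of low genes. All adjusted p-values are from this fit, and an exact permutation test of 2 against 2 libraries cannot pass 0.05. On data simulated for 6 h against control (10 runs of 11149 to 11190 genes), the fit called 44.4% of the genes set to a log2 change of 1, 84.7% at 2 and 92.2% at 3, with 2 to 7 false calls a run. The noise was drawn independently for each gene, without shifts shared by many genes of a library, such as those of control replicate 1. Neither the shares called nor the count of false calls therefore carries over to the real libraries. Gene positions are from GENCODE M21, which held 10899 (96.4%) of the genes tested, and promoters from RefSeq GRCm38.p6. Lists were described by counts and medians.

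The genes and lists were chosen with earlier results of these data known. A rule admitted 196 genes for naming: called genes other than unnamed models and short RNAs, extreme changes outside the p53 list, and the 3 members of each list with the smallest p. The text names only some of them; genes outside the rule were named to complete a list or after their values were seen. Alternatives changed the pseudocount, filter, scaling, variance model, block and libraries.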

Additional observations from a re-analysis of the deposited data

How the results depend on the processing

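Of 11305 genes, 84 were called (60 higher, 24 lower), and leaving out 1 library at a time gave 6 to 59 calls (3 to 49 higher, 3 to 10 lower); the single library left in a group was then assumed to vary like the others. The number at least 2-fold apart without overlap, 159 in all, ranged over these fits from 203 to 321 (119 to 213 higher, 59 to 129 lower), since 1 library overlaps less easily than 2. Without a filter on low values 9 genes were called (5 higher, 4 lower), with robust empirical Bayes 144 (91 and 53), and with limma-voom on the recovered reads 127 (78 and 49). The replicate block called 253 (146 and 107); the labels give only a shared number, and deviations of same-numbered libraries correlated at 0.464 over genes, which with 2 pairs does not show a pairing. Genes at least 2-fold apart numbered 309 (160 higher, 149 lower) with a pseudocount of 0.1, 329 (161 and 168) on recovered reads and 94 (63 and 31) with a filter of 5 FPKM; the lower ones numbered 99 with a pseudocount of 0.5. The causes were not tested. Of the named genes that were followed through these fits, signs turned only for uncalled genes near 0. Muc19 and Fos were not among those followed, and both were uncalled with larger differences. By their values given above, the direction of both rested on control replicate 1 and turns without it. Psmb8 had a log2 fold change of 0.009 with median-of-ratios factors and 0.006 with quantile normalization. With 1 library left out, log2 fold changes ranged from -0.412 to 0.549 for H2-DMb2, -0.442 to 0.636 for H2-Oa, -0.082 to 0.363 for Aqp5, -0.050 to 0.273 for Chrm3, -0.245 to 0.212 for Psmb8, -0.058 to 0.404 for Psmb9, -0.115 to 0.283 for Cd86 and -0.100 to 0.525 for Cd83. On recovered reads 9 of 83 calls were lost, among them H2-DMb1 (adjusted p = 0.0973), Thy1 (0.0719), Mir143 (0.347), Snord89 (0.336) and Mir5128 (0.321). The class II list median, -0.37, was -3.53 with a filter of 5 FPKM, where fewer members are tested and the median is the value of H2-Ab1. Depth limits genes under 1 FPKM, which were not tested.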

Other observations

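All genes below were singled out after their values were seen. Of 8 clustered histone genes tested, 8 lay above 0, with a median log2 fold change of 0.74, 0 were called and 6 had an unadjusted p under 0.05. Hist1h2bc was at 39.8 and 42.3 FPKM at 6 h and at 22.5 and 17.1 FPKM in control (adjusted p = 0.0706). Hist3h2a was at 23.1 and 31.6 FPKM at 6 h and at 12.8 and 13.3 FPKM in control (adjusted p = 0.0975), and Hist2h4 at 2.58 and 1.24 FPKM at 6 h and 0.211 and 0.220 FPKM in control (adjusted p = 0.171).

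Gadd45a, a stress gene that p53 can induce, was lower at 6 h, at 19.3 and 21.4 FPKM, against 55.2 and 33.5 FPKM in control (adjusted p = 0.18). Control replicate 1 was also the highest library for the immediate early genes Egr1 (5.26 and 4.32 FPKM at 6 h, 21.3 and 7.46 FPKM in control), Dusp1 (5.86 and 8.31 FPKM at 6 h, 30.8 and 7.71 FPKM in control) and Btg2 (19.0 and 23.2 FPKM at 6 h, 39.9 and 12.3 FPKM in control).

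Of 115 short RNAs tested, 4 were called, and their median was -0.009. Snord16a was at 3.62 and 3.50 FPKM at 6 h and listed at 0 in both control libraries, and Mir143 at 3.93 and 2.52 FPKM and listed at 0. Snord89 was listed at 0 in both 6 h libraries and at 2.59 and 1.80 FPKM in control. Mir5128 was at 42.3 and 59.1 FPKM at 6 h and 18.7 and 19.5 FPKM in control. On recovered reads Mir143, Snord89 and Mir5128 were not called (adjusted p = 0.347, 0.336 and 0.321), and Snord16a had no value there. Also, AU040972 was at 2.38 and 2.38 FPKM at 6 h and listed at 0 in both control libraries, and D17H6S56E-5 at 1.41 and 1.24 FPKM at 6 h and 7.16 and 5.82 FPKM in control (adjusted p = 0.0183).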
